A study of Mus musculus with 15 samples.

Results

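The genes described here encode the hydratases, dehydrogenases and thiolases of fatty acid beta-oxidation and the helper enzymes that unsaturated fatty acids need. They were chosen by name, and of the 9 genes listed (Hadha, Hadhb, Hadh, Echs1, Ech1, Eci1, Eci2, Decr1 and Acaa2), 8 had a probe set that the platform annotation assigns to a single gene, 1 probe set each. The table holds 12422 probe sets in all, and 8251 genes have at least 1 such probe set. Hadha had none and is not analysed here. All 8 measured genes passed the filter on dim genes, which left 4950 genes to test. The lowest single value of any of them, 476 for Decr1, was above the highest array median of 217. The intensities of different probe sets are not comparable, so levels are compared only within a gene.

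Fatty acids enter mitochondrial beta-oxidation as acyl-CoA, and each turn of the cycle removes an acetyl group. After the acyl-CoA dehydrogenases make an enoyl-CoA, a hydratase adds water, a hydroxyacyl-CoA dehydrogenase oxidises the product and a thiolase splits off acetyl-CoA. Helper isomerases and a reductase reshape the double bonds of unsaturated fatty acids so that they can enter the same cycle. The adult heart draws most of its energy from this pathway, and reliance on it grows after birth.

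The arrays measured RNA from mouse hearts with a cardiac knockout of Mnat1, which encodes MAT1, a subunit of the CDK-activating kinase and of the general transcription factor TFIIH. CKO hearts had the genotype αMHC-Cre+/0; MAT1F/F and were sampled at 4 weeks (5 arrays) and at 2 weeks (4 arrays). Their controls were littermates of the genotype αMHC-Cre+/0; MAT1F/+, with 3 arrays at 4 weeks and 3 at 2 weeks. All 4 groups thus carried the Cre transgene and at least 1 floxed allele, and the controls kept 1 wild-type allele. The αMHC promoter drives Cre in cardiomyocytes, so the other cells of the heart were not targeted, and whole-heart RNA holds both. The labels do not say whether each array came from a separate mouse, and p-values measure the spread between these samples.

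The 15 arrays fell into 2 sets by their values alone, which cut across genotype and age: set 1 held 6 arrays and set 2 held 9. Arrays of the same set correlated at 0.937 or more over all probe sets, and arrays of different sets at no more than 0.924. The labels do not name what the sets stand for. At 4 weeks set 1 held CKO samples 1 and 2 and control sample 1, and at 2 weeks CKO samples 3 and 4 and control sample 3. Array set was called for 74.6% of the tested genes, so results for the 8 genes are also given with the set as a block. The sets were drawn from these same values, so this share describes them and is no independent test. P-values with the block take the sets as known. Values of other genes are over all arrays unless the block is named. Xist and Uty levels classed 4 of 5 CKO and 1 of 3 control arrays at 4 weeks as female, against 1 of 4 CKO and 1 of 3 control arrays at 2 weeks. Both Mnat1 probe sets were dim. At 4 weeks they averaged 210.5 and 62.1 in CKO hearts and 145 and 64.5 in control hearts, and neither passed in a limma fit over all probe sets (adjusted p = 0.726 and 0.994). The sources used here do not place their probes inside or outside the deleted part of the gene, so they do not check the labels. The summed intensity of 13 measured cardiomyocyte markers ran from 73292 to 92462 over the 15 arrays. None of the 13 was at the floor of 0.95 on all arrays. Only 81 to 191 probe sets per array were at the floor, so this does not show expression.

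Promoter sequences were available from RefSeq (mouse build GRCm38.p6) for 7 of the 9 genes: Hadh, Hadha, Hadhb, Ech1, Echs1, Eci2 and Eci1. The windows held 300 bases, from 250 before to 50 after the start site. They describe the listed genes, whether or not a gene was called at 4 weeks. Hadha among them was not measured, and Decr1 and Acaa2 had no sequence available. The 250 bases before the start site are printed for Hadhb, whose window overlaps that of Hadha, for Echs1, the 1 gene with a match to a nuclear receptor core motif, and for Eci1, which had the largest difference at 4 weeks among the 8 genes. Capitals mark the GC box GGGCGG and the nuclear receptor core motif AGGTCA, read on either strand. The Hadhb sequence lies at chr5:30155003-30155252 on the plus strand, that of Echs1 at chr7:140116422-140116671 on the minus strand and that of Eci1 at chr17:24426433-24426682 on the plus strand.
Hadhb: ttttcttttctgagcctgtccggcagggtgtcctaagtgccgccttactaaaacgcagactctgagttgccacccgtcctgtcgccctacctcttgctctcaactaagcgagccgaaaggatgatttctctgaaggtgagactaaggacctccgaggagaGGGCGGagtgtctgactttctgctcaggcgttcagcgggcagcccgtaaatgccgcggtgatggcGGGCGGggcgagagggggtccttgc
Echs1: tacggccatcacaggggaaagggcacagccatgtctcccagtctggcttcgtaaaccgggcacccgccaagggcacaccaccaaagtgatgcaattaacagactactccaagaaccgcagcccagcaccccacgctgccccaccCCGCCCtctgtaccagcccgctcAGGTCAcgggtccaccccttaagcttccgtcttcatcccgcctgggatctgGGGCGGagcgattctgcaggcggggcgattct
Eci1: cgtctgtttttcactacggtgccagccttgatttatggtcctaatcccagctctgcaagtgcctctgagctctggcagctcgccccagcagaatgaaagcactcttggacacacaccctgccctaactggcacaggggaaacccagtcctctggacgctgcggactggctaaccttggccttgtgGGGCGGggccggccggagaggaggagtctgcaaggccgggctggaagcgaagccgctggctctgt

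The GC box was found in 7 of the 7 windows, against 35.7% of 32851 promoters of the same length. GC content ran from 52.3% in Ech1 to 63.7% in Echs1, with a median of 52.7% over all promoters. The motif AGGTCA occurred in 1 of 7 windows, against 16.3% of all promoters. None of the 7 held TCAAGGTCA, the element of estrogen-related receptors (0.423% of all promoters), a direct repeat of AGGNCA with 1 base between the copies (0.381%) or the E-box CACGTG (7.15%). Each motif was searched on both strands, and TCAAGGTCA contains AGGTCA. Hadha and Hadhb, which encode the partner subunits of the mitochondrial trifunctional protein, are read away from each other from start sites 273 bases apart. Their windows share 228 bases, so 1 of their GC boxes is the same site counted in both. A match here describes letters in a short window and is not a measured binding site.

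The first comparison asks how the knockout differed from control at 4 weeks. All 8 measured genes had a lower mean in CKO hearts. In 6 of them the difference passed the test by limma: Eci1, Echs1, Ech1, Acaa2, Decr1 and Hadhb, with levels 1.63 to 2.89 times lower. Over all tested genes 4.61% were called lower in this comparison and 11.2% were called in either direction at an adjusted p under 0.05, with 326 higher and 228 lower. That split depended on scaling between arrays, with 240 higher and 308 lower after quantile normalization and 169 higher and 212 lower after scaling to the same median. The median difference of the 8 was -0.94 on the log2(intensity + 16) scale, against 0.08 for all tested genes. Groups did not overlap for 6 of the 8 genes, which held for 6.57% of all tested genes in the downward direction. With array set as a block, 8 of 8 were called lower, against 12.2% of all tested genes. With inferred sex as a second block, 8 of 8 were called lower, in a fit that called 31.6% of all tested genes, 1000 higher and 564 lower.

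The trifunctional protein and the soluble matrix enzymes carry out the successive steps of the cycle. Hadhb encodes the subunit that holds the long-chain thiolase. Its intensity was 2629, 2686, 2757, 3295 and 3755 in CKO hearts at 4 weeks, against 4419.86, 5096 and 5232 in control hearts. Every CKO array lay below every control array. The difference was -0.71 ± 0.11 (log2, SE; adjusted p = 0.000761, limma). The fit with array set as a block gave -0.70 ± 0.0911 (adjusted p = 2.45e-05, limma). It was -0.73 within array set 1, with 2 CKO arrays and 1 control array, and -0.67 within set 2, with 3 and 2.

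Echs1 encodes the short-chain enoyl-CoA hydratase, which adds water to the double bond. Its intensity was 582, 553, 531, 842 and 991 in CKO hearts, against 1653, 1509 and 1724 in control hearts. The highest CKO array, sample 5, was still well under the lowest control array. Echs1 was lower in CKO hearts by 1.24 on the log2 scale (SE 0.19, adjusted p = 0.000767, limma), or 2.37-fold. The block gave -1.24 ± 0.17 (adjusted p = 3.87e-05, limma), and sets 1 and 2 gave -1.52 and -1.06.

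Hadh encodes the dehydrogenase that oxidises medium- and short-chain hydroxyacyl-CoA. Its intensity was 1417, 1331, 1186, 1199.85 and 1292 in CKO hearts, against 2401, 1619.51 and 1632 in control hearts. The groups did not overlap, but control sample 1, of array set 1, stood above the other control arrays. The difference of -0.52 ± 0.17 did not pass the test (adjusted p = 0.056, limma), and it was -0.34 without that sample. With array set as a block it was -0.55 ± 0.10 and passed (adjusted p = 0.000562, limma).

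Acaa2 encodes a mitochondrial thiolase that acts on medium-chain substrates. Its intensity was 3299.98, 3715, 2473, 3077 and 3851 in CKO hearts, against 6160.02, 6652 and 7028 in control hearts. The groups were far apart, with a difference of -1.02 ± 0.11 and an adjusted p of 5.3e-05 by limma, the smallest of the 8 genes over all arrays. Levels in CKO hearts were 2.03-fold lower. The block gave -1.03 ± 0.10 (adjusted p = 2.24e-06, limma), and the sets gave -0.81 and -1.14.

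Among the helper enzymes, Eci1 and Eci2 encode enoyl-CoA isomerases that move a double bond into the position the hydratase accepts. Eci1 had intensities of 699, 671, 1072, 1017 and 1443 in CKO hearts, against 1696, 3532 and 3467 in control hearts. No CKO array reached a control array, although control sample 1 lay nearer to the CKO arrays than to the other control arrays. The difference of -1.53 ± 0.31 was the largest of the 8 genes (adjusted p = 0.00463, limma). Under the block it was -1.48 ± 0.11, and its adjusted p of 9.4e-08 by limma was then the smallest of the 8 genes.

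Eci2, which is found in peroxisomes as well, had intensities of 706, 703, 1234, 1336 and 1337 in CKO hearts, against 959, 1762 and 1879 in control hearts. The groups overlapped, because control sample 1 lay below 3 of the CKO arrays. That sample and the 2 lowest CKO arrays belong to array set 1. The difference was -0.52 ± 0.31 and did not pass the test (adjusted p = 0.378, limma). It ran from -0.83 without control sample 1 to -0.35 without control sample 3. Blocking on array set gave -0.47 ± 0.07 (adjusted p = 0.000103, limma), and within each set every CKO array was below every control array.

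Decr1 encodes the mitochondrial dienoyl-CoA reductase, needed for unsaturated fatty acids with certain double-bond positions. Its intensity was 476, 484, 543, 679 and 595 in CKO hearts, against 631, 1279 and 1284 in control hearts. Only CKO sample 4 reached above the lowest control array. The difference was -0.86 ± 0.25 (adjusted p = 0.0373, limma). Leaving out any 1 of 6 of the 8 arrays at this age ended the call, with an adjusted p of up to 0.202, while with array set as a block it was -0.82 (adjusted p = 0.000133, limma). The 2 sets differed in size, at -0.38 in set 1 and -1.07 in set 2.

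Ech1 encodes a dienoyl-CoA isomerase of mitochondria and peroxisomes. Its intensity was 1621, 1537, 2365, 2411 and 2737 in CKO hearts, against 3802, 5209 and 4577 in control hearts. The groups were well apart. Ech1 fell by 1.10 on the log2 scale (SE 0.18; adjusted p = 0.0011, limma), which is 2.15-fold. The block gave -1.08 ± 0.13 (adjusted p = 9.35e-06, limma), and the sets gave -1.26 and -0.96.

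**Figure D1:**
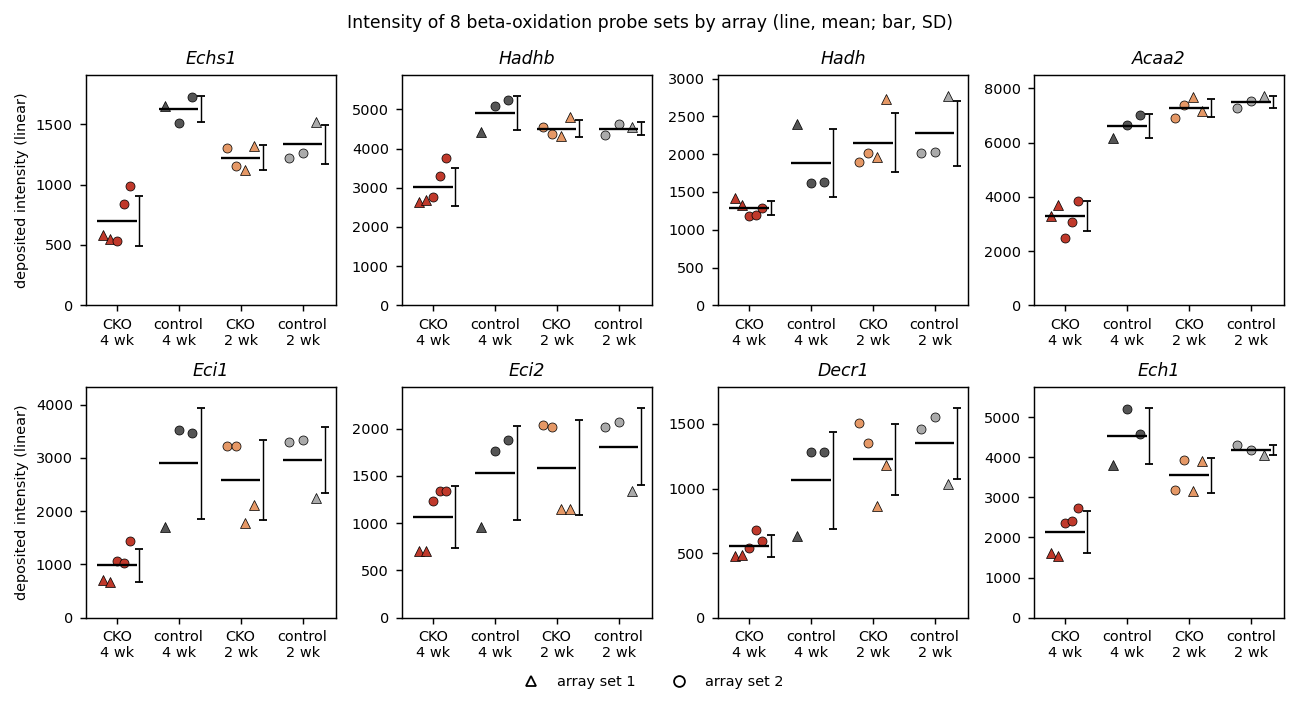
Deposited linear intensity of the 8 measured genes on each of the 15 arrays, one panel per gene, for CKO and control hearts at 4 weeks and at 2 weeks. Triangles are array set 1 and circles array set 2, the line is the group mean and the bar the SD; in 6 genes every CKO array at 4 weeks lies below every control array of that age.

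The differences at 4 weeks ran from -1.53 for Eci1 to -0.52 for Eci2 over all arrays. Eci1 and Eci2, the isomerase pair, differed by -1.29 and -0.44 within array set 1 and by -1.58 and -0.48 within set 2. Under the block these were -1.48 ± 0.11 and -0.47 ± 0.07. An exact permutation test over the 8 arrays at 4 weeks, run for the 28 pairs of genes after these values were seen, took no account of array set. Its 56 regroupings allow no two-sided p under 0.0179, which passes Benjamini-Hochberg adjustment over the pairs only if many of them reach it, so its outcome (0 of 28 pairs passed) says nothing on whether the genes differ.

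The second comparison asks whether the difference was already present at 2 weeks. No gene passed the test at that age by limma, with 0.0202% of all tested genes called. No gene had an unadjusted p under 0.05 either. All 8 differences were at or below 0, from -0.24 for Ech1 to -0.0006 for Hadhb, with a median of -0.13 against 0.04 for all tested genes. The lowest adjusted p was 1 over all arrays and 0.943 with array set as a block, a fit that called 0.0202% of all tested genes lower. Ech1 had intensities of 3182, 3940.19, 3159 and 3913 in CKO hearts at 2 weeks, against 4304, 4172 and 4048 in control hearts. It was the 1 gene of the 8 whose groups did not overlap, which held in that direction for 0.586% of all tested genes. Its difference of -0.24 had a 95% confidence interval from -0.64 to 0.16.

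At 2 weeks Acaa2 had intensities of 6926, 7387, 7696 and 7159 in CKO hearts, against 7279.87, 7556 and 7719 in control hearts. Hadhb had 4539, 4382, 4318 and 4795 in CKO hearts, against 4334, 4637 and 4555 in control hearts. For both genes the groups overlapped. The 95% confidence intervals of the differences ran from -0.30 to 0.21 for Acaa2 and from -0.24 to 0.24 for Hadhb. Those of Eci1 and Eci2 were wider, from -0.91 to 0.47 and from -0.92 to 0.49. Under the block the differences of Eci1 and Eci2 were -0.0941 ± 0.11 and -0.0813 ± 0.0752.

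**Figure D2:**
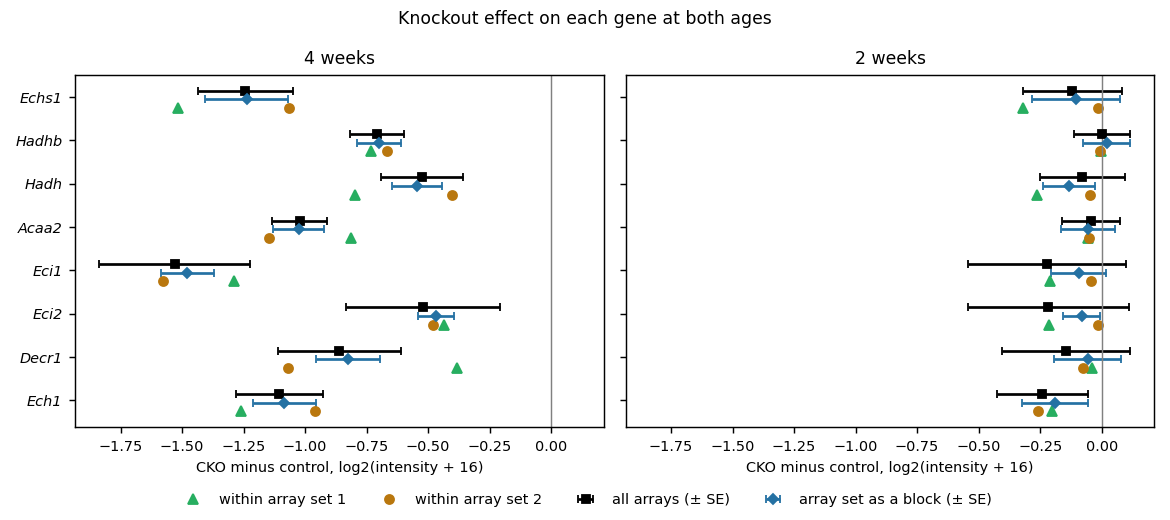
CKO minus control on the log2(intensity + 16) scale for each of the 8 genes, at 4 weeks (left) and 2 weeks (right). Squares are all arrays and diamonds the fit with array set as a block, each with its SE, and triangles and circles are the differences within array sets 1 and 2; all 8 genes lie below 0 at 4 weeks under each of these, while at 2 weeks they lie between -0.32 and 0.02.

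The third comparison asks whether the knockout effect differed between the ages. Acaa2 passed this test, with an effect lower by 0.98 ± 0.16 at 4 weeks than at 2 weeks (adjusted p = 0.00873, limma). Hadhb passed with a difference of -0.71 ± 0.16 (adjusted p = 0.0382, limma), a call that was lost when any 1 of 12 of the 15 arrays was left out (adjusted p up to 0.135). These 2 of 8 genes compare with 1.56% of all tested genes called, and 0.788% called in the downward direction. All genes called were 38 higher and 39 lower, against 0 higher and 7 lower after scaling arrays to the same median, when none of the 8 was called. The other 6 genes did not pass: Eci1 had a difference of -1.31 (adjusted p = 0.227), Echs1 -1.12 (adjusted p = 0.0622), Ech1 -0.86 (adjusted p = 0.144), Decr1 -0.71 (adjusted p = 0.584), Hadh -0.44 (adjusted p = 0.619) and Eci2 -0.31 (adjusted p = 0.999), all by limma. With array set as a block 7 of 8 were called lower, against 5.27% of all tested genes, and Hadh was not (adjusted p = 0.0792).

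The same genes were then compared across age within each genotype. These comparisons share arrays with those above and are not independent of them. In CKO hearts 7 of 8 genes were lower at 4 weeks than at 2 weeks by limma. Of all tested genes 6.57% were called with age in CKO hearts and 2.81% were called lower. Scaling arrays to the same median left 3 of the 8 called, against 3.64% of all tested genes. The 4 calls lost under that scaling had differences of -0.58 for Hadhb, -0.83 for Echs1, -0.75 for Ech1 and -1.10 for Decr1, with adjusted p-values from 0.0509 to 0.0831 by limma. Acaa2 fell to 3283 ± 549.6 in CKO hearts at 4 weeks, against 7292 ± 329 at 2 weeks (SD, n = 5 and 4), a difference of -1.16 (adjusted p = 1.47e-05, limma). Hadh fell to 1285 ± 95.7 at 4 weeks, against 2150.3 ± 389 at 2 weeks, a difference of -0.72 (adjusted p = 0.0107, limma). Differences for the other 5 called genes ran from -1.39 for Eci1 to -0.59 for Hadhb. Eci2 differed by -0.58 ± 0.29 and was not called (adjusted p = 0.343), but was with array set as a block (adjusted p = 4.04e-06, limma), when 8 of 8 were called lower against 10.8% of all tested genes. Groups did not overlap for 7 of the 8 genes, against 4.59% of all tested genes in the downward direction.

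In control hearts no gene was called with age by limma, with 0.727% of all tested genes called (24 higher and 12 lower, against 10 higher and 1 lower after scaling to the same median), and none had an unadjusted p under 0.05. In the downward direction 0.242% of all tested genes were called. With array set as a block none of the 8 was called either, against 3.05% of all tested genes called lower. The differences ran from -0.39 for Decr1 to 0.29 for Echs1. Echs1 averaged 1629 ± 109.6 in control hearts at 4 weeks and 1334 ± 161 at 2 weeks, and Acaa2 averaged 6613 ± 435 at 4 weeks and 7518 ± 222 at 2 weeks (SD, n = 3 each). Acaa2 was the 1 gene whose control groups did not overlap, as for 5.21% of all tested genes in the downward direction. CKO hearts at 4 weeks had the lowest mean of the 4 groups in each of the 8 genes. For 6 of them, all but Eci2 and Decr1, every 4-week CKO array lay below every array of the other groups. Among the other groups, neighbours in order of mean overlapped, except CKO and control hearts at 2 weeks for Ech1.

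**Figure D3:**
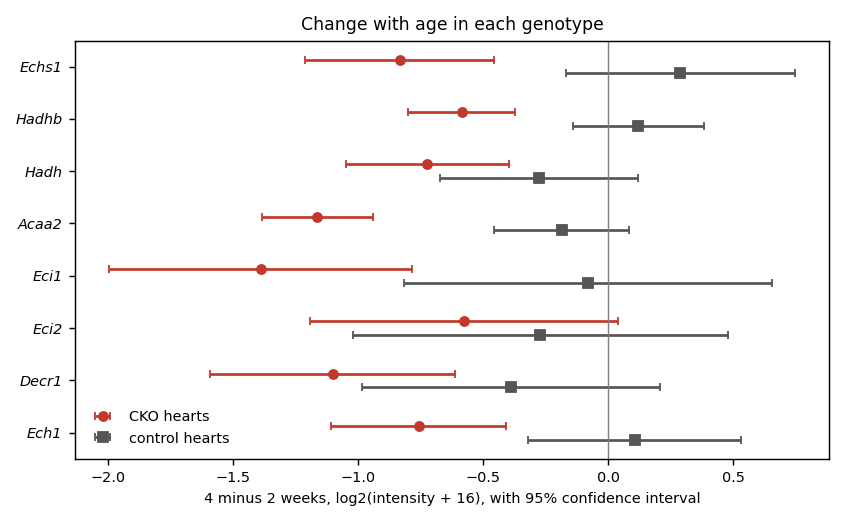
Difference between 4 and 2 weeks on the log2(intensity + 16) scale, with 95% confidence intervals, for each of the 8 genes in CKO and in control hearts. The intervals in CKO hearts lie below 0 for 7 genes and include 0 for Eci2, and the intervals in control hearts include 0 for all 8.

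The 8 genes also differed in how they followed the 2 array sets. Relative to set 1, set 2 was higher by 0.81 for Eci2, 0.77 for Eci1, 0.54 for Decr1 and 0.31 for Ech1, and Hadh was lower by 0.31 (adjusted p = 3.59e-09, 2.99e-07, 8.84e-05, 0.00734 and 0.00118, limma). Hadhb, Echs1 and Acaa2 differed by 0.13, 0.09 and -0.06 between sets and did not pass (adjusted p = 0.0949, 0.543 and 0.489). The set was thus called for 5 of the 8 genes, no more often than for the 74.6% of all tested genes given above. Because the sets were drawn from these same values, the p-values for the set are descriptions and not valid tests. Across the 15 arrays the correlation of a gene with the mean of the other 7 was lowest for Hadh (r = 0.654) and Eci2 (r = 0.711) and highest for Hadhb (r = 0.959). After the mean of each array set was removed these correlations ran from 0.902 to 0.986. The points share arrays, group means and array sets, so these correlations are descriptions.

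Outside the list, the genes most like the mean of the 8 across the 15 arrays were Crat (Pearson r = 0.974), Cpt2 (0.971), Etfdh (0.969), Gpam (0.967), Dhrs4 (0.964) and Hsdl2 (0.964). Spearman's rho for these ran from 0.886 for Gpam to 0.957 for Etfdh. Cpt2 and Crat act on acylcarnitines, Etfdh passes electrons from beta-oxidation to ubiquinone, and Gpam starts glycerolipid synthesis. The 4-week difference enters this choice, so the values of these 6 genes at 4 weeks are a description. Cpt2 averaged 943 ± 137 in CKO hearts and 2120.5 ± 287 in control hearts (SD, n = 5 and 3), and Etfdh averaged 736 ± 68.2 in CKO hearts and 1594 ± 370.2 in control hearts. The log2 differences were -0.56 for Crat, -1.16 for Cpt2, -1.07 for Etfdh and for Gpam, -0.78 for Dhrs4 and -1.51 for Hsdl2. With array set means removed, Gpam, Cpt2, Crat and Etfdh were again among the 6 most alike, with Dlst and Fhl2.

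The enzymes before and after these steps were lower at 4 weeks in part. Of all tested genes 4.61% were called lower, and 12.2% with array set as a block. Of the 6 tested genes for acyl-CoA dehydrogenases and the electron transfer flavoprotein, 4 were called lower in CKO hearts (Etfdh, Etfb, Etfa and Acadm). The list median was -0.66, and 6 were called lower with array set as a block. Acadm, the medium-chain acyl-CoA dehydrogenase, averaged 3404 ± 329 in CKO hearts and 4851 ± 518 in control hearts (log2 difference -0.51, adjusted p = 0.00389, limma). Of 4 tested carnitine shuttle genes, 3 were called lower: Cpt2, the carnitine carrier Slc25a20 (-0.87) and Crat (-0.56). Of 6 genes for fatty acid uptake and activation, 2 fell, the fatty acid transporter Cd36 (-0.93, adjusted p = 0.0266, limma) and the lipoprotein lipase gene Lpl (-0.67, adjusted p = 0.000303, limma). The heart fatty acid binding protein gene Fabp3 differed by -0.22 and did not pass (adjusted p = 0.133, limma). Among 5 tested genes of peroxisomal beta-oxidation, Scp2 (-0.75) and Acaa1b (-0.71) were called lower. Hsd17b4 differed by -0.63 and did not pass (adjusted p = 0.237, limma). Blocking on array set, both Fabp3 and Hsd17b4 were called lower (adjusted p = 0.00222 and 0.00172, limma).

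Neighbouring mitochondrial pathways held many genes called lower as well, against 4.61% of all tested genes called lower and 6.59% called higher. Among 9 tested genes for branched-chain amino acid and ketone handling 5 were called lower. These included Bckdha (-1.49), Bckdhb (-1.25) and Ivd (-1.48), which act in the breakdown of branched-chain amino acids. In the citric acid cycle 9 of 19 genes were called lower, with a list median of -0.48. These included Sdha (-1.21), Idh2 (-1.05) and the citrate synthase gene Cs (-0.56). In the respiratory chain 7 of 20 genes were called lower, with a list median of -0.31. These included Cox7a1 (-0.62), Ndufb2 (-0.49) and Atp5a1 (-0.41). In glycolysis 3 of 14 genes fell and 2 rose, including the platelet-type phosphofructokinase gene Pfkp, which was higher by 1.79 (adjusted p = 0.000416, limma), while the muscle type Pfkm fell by 0.87 on the log2 scale (adjusted p = 0.00424, limma) and Ldhb fell by 0.52 (adjusted p = 0.00448, limma). The counts with array set as a block were larger in each of these lists except the carnitine shuttle, with 3 under both. That fit called more of all tested genes too, 35.5% against 11.2%.

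None of 11 tested regulators of these pathways passed the test over all arrays, against 11.2% of all tested genes called and 4.61% called lower. For so few genes this count is not far from that share. With array set as a block 3 were called lower, Mef2d, Ppara and Mef2a, against 12.2% of all tested genes. Mef2d, a muscle transcription factor gene, differed by -0.59 ± 0.26 over all arrays (adjusted p = 0.194, limma) and by -0.63 ± 0.10 with the block (adjusted p = 0.00018, limma). Ppara encodes the fatty acid receptor that controls many beta-oxidation genes. It averaged 453 ± 48.5 in CKO hearts and 591 ± 76.3 in control hearts at 4 weeks, and its difference of -0.37 ± 0.15 did not pass (adjusted p = 0.141, limma) until array set was a block (adjusted p = 0.0279, limma). Esrra, which encodes an estrogen-related receptor active in oxidative metabolism, differed by -0.25 and did not pass (adjusted p = 0.254, limma). The coactivator gene Ppargc1a was too dim to be tested. Of 5 tested genes known to respond to PPAR receptors outside the pathway, Pdk4 was lower by 0.82 on the log2 scale (adjusted p = 0.0323, limma). Mlycd and Plin2 differed by -0.40 and -0.28 and did not pass (adjusted p = 0.0605 and 0.708, limma). Mlycd was called lower with the block (adjusted p = 0.00677, limma) and Plin2 was not (adjusted p = 0.0964).

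**Figure D4:**
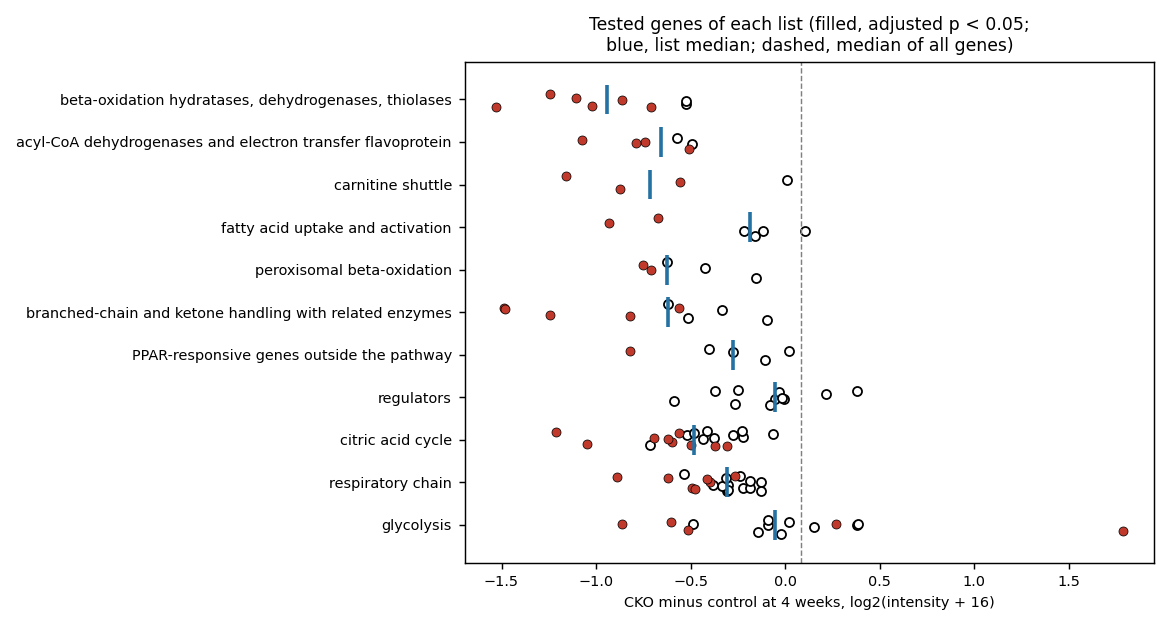
CKO minus control at 4 weeks on the log2(intensity + 16) scale for each tested gene of the beta-oxidation list and 10 related lists. Filled points passed an adjusted p of 0.05, the blue bar is the list median and the dashed line the median of all tested genes, 0.08; the beta-oxidation list has the lowest median, -0.94.

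Markers of other cells also differed between the genotypes at 4 weeks. At 4 weeks the summed intensity of 13 fibroblast markers ran from 27162 to 35986 in CKO hearts, against 12876 to 14294 in control hearts. Of the 12 tested, 10 were called higher than in control hearts, and none was called lower (median 1.17). Between 2 and 4 weeks the median difference of these 12 was -0.90 in control hearts and 0.36 in CKO hearts. In control hearts 2 were called lower with age, against 0.242% of all tested genes, and 7 under the block, against 3.05%. In CKO hearts 2 were called higher with age, against 3.76%, and 5 under the block, against 14.3%. At 4 weeks the summed intensity of 13 cardiomyocyte markers ran from 73292 to 81107 in CKO hearts, against 86373 to 92462 in control hearts. The brightest probe sets weigh most in such sums, so they do not measure cell content. Of these 13, 7 were called lower and 1, Nppa, higher, with a median of -0.30. None of the markers in either list was at the floor on all arrays. Of 8 tested smooth muscle markers 2, Acta2 and Cnn1, were called higher, and of 8 tested endothelial markers 1, Eng. The medians of these 2 lists were 0.19 and 0.03, against 0.08 for all tested genes. No macrophage, lymphocyte, erythroid or adipocyte marker was called over all arrays. Of all tested genes 6.59% were called higher and 4.61% lower. Under the block 12 of 12 fibroblast markers were called higher, and the cardiomyocyte counts were again 7 lower and 1 higher. That fit called 23.2% of all tested genes higher and 12.2% lower. It called 3 of 8 smooth muscle markers higher, with Tagln added. Of 8 endothelial markers it called 2 higher, with Vwf added, and 1 lower, Tie1. It also called higher 1 of 4 lymphocyte markers (Cd79b), 1 of 3 erythroid markers (Hba-a1) and 1 of 3 adipocyte markers (Cidea). At 2 weeks no marker of any list was called over all arrays, and Nppa was called higher with the block. In whole-heart RNA, fewer cardiomyocytes and less of these RNAs per cardiomyocyte cannot be told apart, and the part of the cell mixture in the results was not tested.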

How the data were processed

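The series holds 15 arrays of 1 colour, each with RNA of 1 mouse heart sample. The authors deposited linear intensity values, 1 per probe set and array, and per the labels' protocols RNA was isolated with Trizol and RNeasy columns and labelled with biotin. The sources used here do not give how the intensities were computed or scaled between arrays. The extraction protocol of control sample 3 at 4 weeks is worded differently from the others. Array medians ran from 174 to 217, and the values carry no detection calls or counts, so the number of arrays limits the precision.

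Probe sets were named through the platform annotation: 10833 of 12422 had 1 gene symbol, 396 several and 1193 none, and 10817 of the 10833 matched the RefSeq gene table. Each gene was taken at its single-symbol probe set of highest mean, and the dimmest 40% of genes were left out. The values were tested as log2(intensity + 16) with limma 3.58.1 (R 4.3.3). One fit to all 15 arrays held a coefficient for each of the 4 groups, with a trended prior and Benjamini-Hochberg adjustment over 4950 genes, and called at an adjusted p under 0.05. Fold changes are on that scale. The fit was tested on simulated data with known differences.

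The genes described, the related lists, the named genes and the array sets were chosen with earlier results of these data known. Those to be named were all 9 genes, the 3 tested genes of smallest p at 4 weeks in each related list, Ppara, Ppargc1a and Esrra, and the 6 genes most alike across arrays; genes named beside a count were taken from that count. Groups come from the sample titles. Deviations of same-numbered CKO and control samples from their group means correlated at 0.814, 0.668 and 0.889 at 2 weeks, where same-numbered samples also share an array set, and at 0.827, -0.553 and 0.583 at 4 weeks. Within a genotype, the deviations of same-numbered samples correlated between ages at -0.805 to 0.614. Each correlation was positive where the 2 samples shared an array set and negative where they did not. These values therefore cannot tell a pairing by number from the array set. The labels give no source for a pairing. Alternatives were quantile normalization, scaling to the same median, pseudocounts of 1 and 64, no filter on dim genes, the mean of a gene's probe sets, array set and inferred sex as blocks, each array set alone, the sample number as a replicate block, array weights, fits of the groups compared alone, and leaving out each array. Leaving out arrays under the array-set block and the permutation test between genes were added after seeing the values.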

Additional observations from a re-analysis of the deposited data

Results flagged for a closer look

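One sample stood far from the others of its group in 1 of the 16 sets of 4 or 5 arrays that were examined, 2 groups for each of the 8 genes, and chance marks about 1 in 20. In CKO hearts at 2 weeks Hadh had intensities of 1898, 2016 and 1958 in samples 1 to 3 and 2729 in sample 4. The gap of sample 4 to its nearest neighbour was 0.857 of the group's whole range. Sample 4 belongs to array set 1, as do control sample 3 at 2 weeks, at 2776, and CKO sample 3 at 2 weeks, at 1958. Its part in the results was not tested beyond leaving it out, when Hadh fell by 0.60 on the log2 scale between 4 and 2 weeks in CKO hearts (adjusted p = 0.0398, limma).

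The knockout effect differed between the ages by the test of the difference itself for Acaa2, at -0.98 (adjusted p = 0.00873, limma), and for Hadhb, at -0.71 (adjusted p = 0.0382, limma). For Acaa2 the effect was -1.02 at 4 weeks and -0.04 at 2 weeks. The call held when each array was left out in turn, with an adjusted p of up to 0.0389 by limma. It was lost when arrays were scaled to the same median (adjusted p = 0.0693, limma). For Hadhb the effect was -0.71 at 4 weeks and -0.0006 at 2 weeks. Its call was lost when any 1 of 12 of the 15 arrays was left out. Scaling arrays to the same median also ended it (adjusted p = 0.323, limma).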

How the results depend on the processing

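Of the 8 genes, the number called lower at 4 weeks was 6, in a fit that called 11.2% of all tested genes. Over the alternatives it ran from 5, as with the sample number as a replicate block (6.38%), to 8, as with array set as a block (35.5%). Leaving out each array in turn gave 5 to 6 (6.2% to 11.9%). It stayed at 0 at 2 weeks and with age in control hearts under each alternative, leaving out each array included. The count for the difference between the ages was 2 (1.56% of all tested genes) and the least stable. It was 0 with scaling to the same median (0.141%), 1 with no filter on dim genes (0.764%) and 4 with quantile normalization (2.2%). It was 5 within array set 2 alone (7.23%) and with array weights, a fit that stopped short of convergence (12.9%). Array set and inferred sex as blocks gave 6 (9.09%). Array set as a block gave 7 (12.4%), and that block with quantile normalization gave 8 (13.1%). Array set 1 alone holds 1 control array per age, and its differences ran from -1.20 to -0.22. The count was 1 to 3 when arrays were left out (0.404% to 1.68%). For 4 against 2 weeks in CKO hearts the count was 7 (6.57% of all tested genes) and 3 with scaling to the same median (3.64%). It stayed at 7 when arrays were left out (4.18% to 6.77%). The sample number as a replicate block gave 5 at 4 weeks, 0 at 2 weeks and 3 for the difference between ages (0.465% of all tested genes). It gave 5 with age in CKO hearts (3.05%) and 0 in control hearts, so it changed no call at 2 weeks. No label gives this pairing, and the deviations cannot tell it from the array set.

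No difference at 4 weeks and no difference with age in CKO hearts changed sign under any alternative. The values that changed sign were of differences that were not called. For CKO against control at 2 weeks Hadhb was 0.0205 with array set as a block, 0.0028 with array set and sex as blocks and 0.0038 with array weights, and Hadh was 0.14 with array weights. The Eci2 difference between ages was 0.0503 with array weights. With age in control hearts, Hadhb was -0.0432 and Ech1 -0.0902 in array set 1 alone, and Eci1 was 0.0755 in set 2 alone and 0.0181 with array weights. Without single arrays Hadhb at 2 weeks ran from -0.0305 to 0.0199, Hadh from -0.20 to 0.0712 and Decr1 from -0.32 to 0.00903, and with age in control hearts Eci1 ran from -0.27 to 0.26, Eci2 from -0.47 to 0.0337 and Ech1 from -0.000686 to 0.23. The causes were not tested.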

Other observations

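Among genes of neighbouring mitochondrial pathways, a few were called higher with age in control hearts by limma, against 0.485% of all tested genes. They were 2 of 9 tested genes for branched-chain amino acid and ketone handling (Bckdha and Oxct1) and 1 of 19 citric acid cycle genes (Idh2). With array set as a block these counts were 5 of 9 and 2 of 19, against 2.87% of all tested genes. Their course with age was not tested against that of the 8 beta-oxidation genes. Bckdha, a subunit of the branched-chain keto acid dehydrogenase, averaged 755 ± 175 in control hearts at 4 weeks and 353 ± 25.2 at 2 weeks (SD, n = 3 each; log2 difference 1.04 ± 0.21, adjusted p = 0.0375, limma). In CKO hearts Bckdha averaged 258 ± 54.3 at 4 weeks and 298 ± 47.2 at 2 weeks (SD, n = 5 and 4), a difference that did not pass (adjusted p = 0.696, limma). Idh2, a citric acid cycle dehydrogenase, averaged 5035 ± 516 in control hearts at 4 weeks and 3301 ± 107 at 2 weeks (adjusted p = 0.0208, limma), while in CKO hearts it fell to 2428 ± 238 at 4 weeks, against 3365 ± 278 at 2 weeks (adjusted p = 0.00619, limma). The knockout effect differed between the ages for both, by -1.25 for Bckdha (adjusted p = 0.0382, limma) and by -1.07 for Idh2 (adjusted p = 0.00169, limma). Blocked on array set, these differences between ages were -1.27 for Bckdha (adjusted p = 0.00185, limma) and -1.09 for Idh2 (adjusted p = 4.98e-06, limma).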
